A study of Mus musculus with 6 samples.

Results

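The 10 genes Gata4, Gata6, Nkx2-5, Mef2a, Mef2c, Mef2d, Tbx5, Tbx20, Hand2 and Srf encode the core transcription factors of the heart muscle cell. They were read through every probe set whose annotation named exactly 1 of these symbols, which gave 30 of the 45037 probe sets tested and covered all 10 of 18193 named genes. The study compared heart tissue RNA of GRK2+/- mice (B6.129-Adrbk1tm1Mca/J, 1 targeted allele of the gene for G protein-coupled receptor kinase 2, crossed back to C57BL/6J for over 20 generations) with wild-type C57BL/6J mice, all 9 months old. Each group held 3 hearts with 1 Affymetrix array each. Isoflurane anaesthesia, arrest by intracardiac KCl and excision of the upper part of the heart were common to both groups. The germline allele affects every cell type, so no result can be assigned to heart muscle alone. Values are deposited log2 probe set levels. Differences are GRK2+/- minus wild type on that scale, with limma's standard error (SE, n = 3 hearts per group), and a difference was called at a Benjamini-Hochberg adjusted p under 0.05 over all probe sets. Array medians lay between 6.25 and 6.31, and the median probe set averaged 6.28.

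These factors form an interlocking network that builds the heart in the embryo and keeps cardiomyocyte genes on in the adult. GATA4 and GATA6 are zinc finger proteins, NKX2-5 is a homeodomain protein, TBX5 and TBX20 carry a T-box, HAND2 is a basic helix-loop-helix protein, and the MEF2 proteins and SRF share the MADS-box DNA-binding domain. GATA4, NKX2-5 and TBX5 bind together at cardiomyocyte promoters, MEF2 proteins are restrained by class II histone deacetylases until calcium and stress signals release them, and SRF switches between muscle genes, with myocardin-type partners, and immediate early genes, with ternary complex factors of the ELK group.

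Promoter sequence was taken from RefSeq windows of GRCm38.p6 running from 250 bases before to 50 bases after the start, which held 7 of the 10 genes (not Gata4, Gata6 and Tbx5). The 3 stretches printed are those with a CArG box, a MEF2 site or a GATA site, letters that members of the network are known to bind. Capitals mark the motif, and positions count from the start, with -1 the base before it. The Srf stretch (chr17:46556163-46556312, minus strand, positions -150 to -1) holds 2 CArG boxes, the element that SRF itself binds, at -82 to -73 and -62 to -53. The Hand2 stretch (chr8:57320753-57320902, plus strand, positions -230 to -81) holds 2 GATA sites, at -215 and -172. The Mef2a stretch (chr7:67372849-67372998, minus strand, positions -140 to 10) holds 1 MEF2 site across the start, from -2 to 8.
Srf: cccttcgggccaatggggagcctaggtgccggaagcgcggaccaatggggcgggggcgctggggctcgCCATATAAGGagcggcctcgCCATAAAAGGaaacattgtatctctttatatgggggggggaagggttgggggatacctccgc
Hand2: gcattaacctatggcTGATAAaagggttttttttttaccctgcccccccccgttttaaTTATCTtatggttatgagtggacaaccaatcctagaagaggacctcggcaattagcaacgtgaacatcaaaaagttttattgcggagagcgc
Mef2a: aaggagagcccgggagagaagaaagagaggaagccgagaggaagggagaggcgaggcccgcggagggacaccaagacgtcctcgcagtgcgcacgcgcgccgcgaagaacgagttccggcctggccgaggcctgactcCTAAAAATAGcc

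Both strands were searched. A CArG box was present in 1.63% of all 32851 windows, a MEF2 site in 1.86%, a GATA site (AGATAA with its variant AGATAG, and TGATAA with its variant TGATAG) in 29.8%, an NKX2-5 site (TNAAGTG) in 11.5% and a T-box motif (AGGTGT) in 13.7%. The only other match among the members was a T-box motif at -216 in 1 of 3 Mef2c windows. The windows of Nkx2-5, Mef2d and Tbx20 held none of the 5 motifs, which says only that these letters are not in those windows.

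The MEF2 genes were higher in GRK2+/- hearts over most of their probe sets, Gata4 and 1 of 2 Srf probe sets were higher as well, and Hand2 was lower over all 3 of its probe sets. The 95% confidence intervals of all Gata6, Nkx2-5 and Tbx20 probe sets included 0, although the 3 Tbx20 differences were all positive. Those of 1 Gata4 and 1 Hand2 probe set included 0 as well. Tbx5 was lower on 1 of 2 probe sets at an unadjusted p only. None of the 30 probe sets passed the threshold over all probe sets (adjusted p from 0.159 to 0.974), and 0 of 45037 passed anywhere on the array, 0%. At an unadjusted p under 0.05, 11 of 30 member probe sets were higher (36.7%, against 5.44% of all probe sets) and 3 were lower (10%, against 7.4%), leaving 16 beyond neither limit. Of those 11 higher probe sets 9 belonged to the 3 MEF2 genes, and probe sets of 1 gene share their transcript, so they are not independent readings. The groups did not overlap for 11 probe sets on the higher side (36.7%, against 6.76% of all probe sets). On the lower side they did not overlap for 3 (10%, against 11.2%), 2 of Hand2 and 1 of Srf. By either count the lower side of the members was near the share of all probe sets. Among probe sets at or above the median level, where 26 of the 30 members lay, the background was 8.22% higher and 7.85% lower at that unadjusted p. The split of all probe sets depended on scaling: 2448 higher and 3332 lower as deposited became 3384 and 2179 with array medians set equal, whereas the members became 13 and 3.

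**Figure D1:**
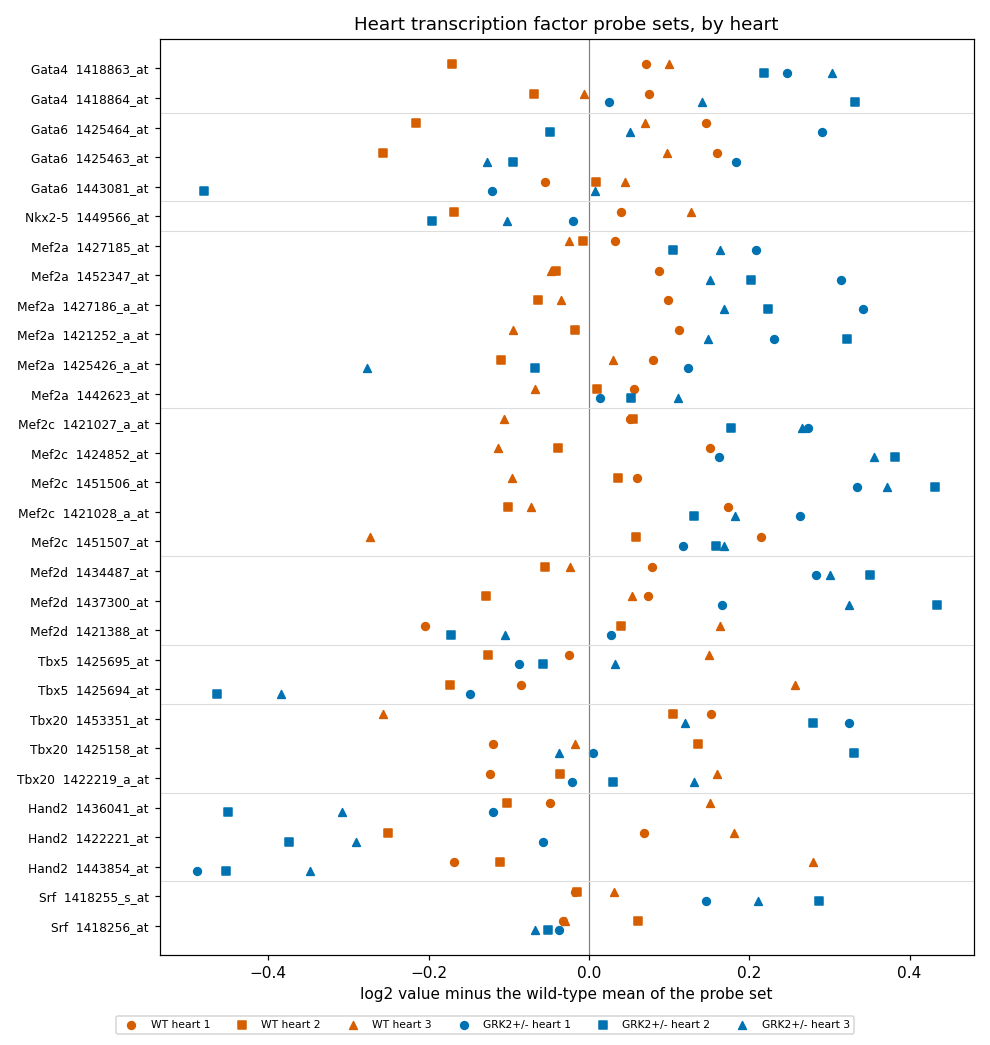
Log2 value of each heart minus the wild-type mean of the probe set (x axis) for the 30 member probe sets (y axis), with wild-type hearts in orange, GRK2+/- hearts in blue and symbols for heart 1, 2 and 3. The blue points of 4 Mef2a, 3 Mef2c and 2 Mef2d probe sets lie to the right of all orange points, and those of 2 Hand2 probe sets lie to the left.

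Mef2c, the MEF2 gene needed first in the embryonic heart, had the largest positive difference among the members. Probe set 1451506_at read 9.64, 9.74 and 9.68 in GRK2+/- hearts 1, 2 and 3 and 9.37, 9.34 and 9.21 in wild-type hearts 1, 2 and 3. All GRK2+/- hearts were above all wild-type hearts, and the spread within either group was small (SD 0.05 and 0.08). The difference was 0.38 ± 0.07, or 1.30-fold, with a 95% confidence interval from 0.22 to 0.54 (limma, unadjusted p = 0.000415, adjusted p = 0.159). The brightest Mef2c probe set, 1421027_a_at, whose suffix marks probes shared by several transcripts of 1 gene, read 10.21, 10.11 and 10.20 against 9.99, 9.99 and 9.83, again without overlap (0.24 ± 0.07). On 1424852_at the GRK2+/- hearts read 9.88, 10.10 and 10.08 and the wild-type hearts 9.87, 9.68 and 9.61, so that GRK2+/- heart 1 and wild-type heart 1 were almost level (0.30 ± 0.09). The remaining 2 probe sets, 1421028_a_at (0.19 ± 0.09) and 1451507_at (0.15 ± 0.11), pointed the same way with overlapping groups. Wild-type heart 3 was the lowest of all 6 hearts on 4 of the 5 Mef2c probe sets, and on 1451507_at, where it read 7.98, the difference was 0.011 without it.

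Mef2d, a second MEF2 gene of the adult heart and a mediator of stress-driven remodelling, was higher on 2 of 3 probe sets. The brightest, 1434487_at, read 10.24, 10.31 and 10.26 in GRK2+/- hearts and 10.04, 9.90 and 9.93 in wild-type hearts. The groups were separated by more than the spread of either, with a difference of 0.31 ± 0.07, or 1.24-fold (confidence interval 0.16 to 0.47; limma, adjusted p = 0.177). On 1437300_at the values were 9.12, 9.39 and 9.28 against 9.03, 8.83 and 9.01 (0.31 ± 0.09), again without overlap. The third, 1421388_at, read 9.10, 8.90 and 8.97 against 8.87, 9.11 and 9.24, with overlapping groups and a difference of -0.083 ± 0.10. The gap between 1434487_at and 1421388_at differed between groups by 0.39, but the per-heart gaps overlapped (exact permutation test, two-sided, p = 0.2).

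Mef2a, the most widely expressed MEF2 gene of adult muscle, was higher on the 4 probe sets with the highest levels. The brightest, 1427185_at, read 11.97, 11.87 and 11.93 in GRK2+/- and 11.80, 11.76 and 11.74 in wild-type hearts, a separation of 0.16 ± 0.07 with tight groups (SD 0.05 and 0.03). For 1452347_at the values were 11.47, 11.36 and 11.31 against 11.25, 11.12 and 11.11 (0.22 ± 0.08). Both GRK2+/- groups lay wholly above the wild-type hearts, as they did on 1427186_a_at (0.24 ± 0.08) and 1421252_a_at (0.23 ± 0.08). Wild-type heart 1 was the highest wild-type heart on all 4. The 2 dimmer probe sets, 1425426_a_at (-0.074 ± 0.10) and 1442623_at (0.059 ± 0.07, at or below 6.29 in every heart), had overlapping groups. Averaged over the 14 MEF2 probe sets and set against the wild-type mean, GRK2+/- hearts stood at 0.20, 0.20 and 0.17 and wild-type hearts at 0.076, -0.026 and -0.050. The median difference of the 14 was 0.23, with 12 above 0 and 2 below, beside -0.021 for all probe sets.

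**Figure D2:**
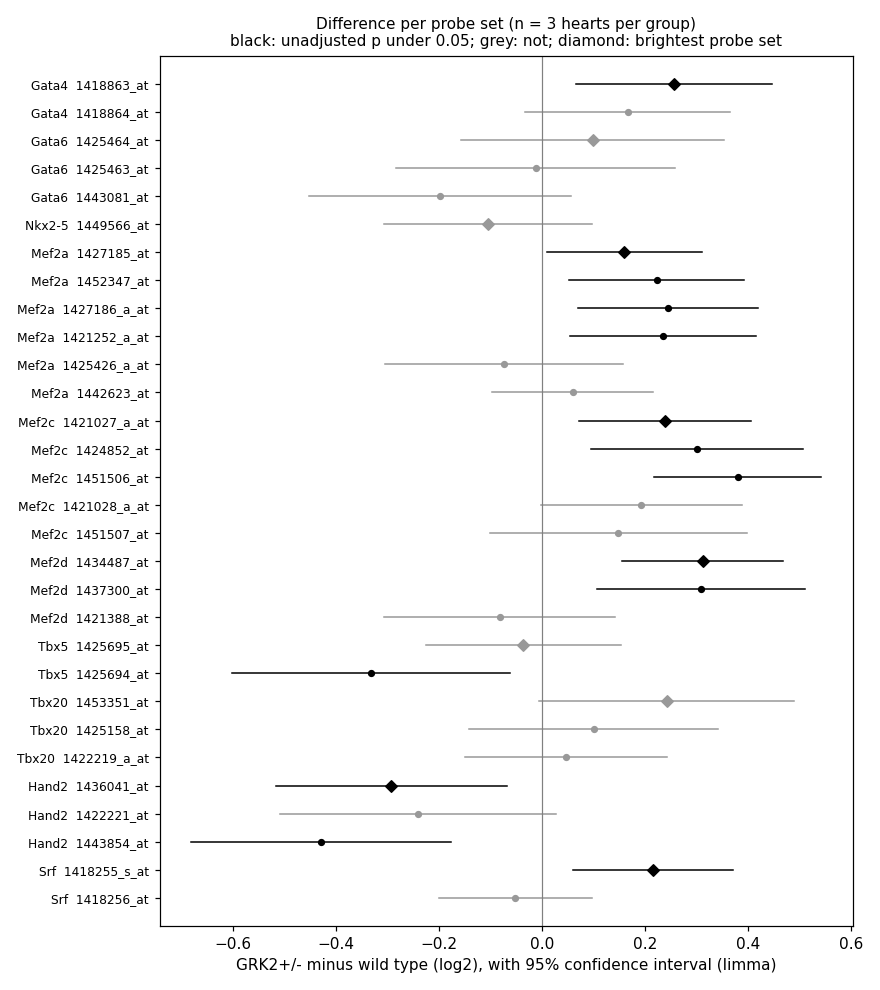
Log2 difference between GRK2+/- and wild-type hearts (x axis, positive where GRK2+/- is higher) with its 95% confidence interval for each of the 30 probe sets (y axis), 3 hearts per group, with an unadjusted p under 0.05 in black and the brightest probe set of each gene as a diamond. The intervals of 9 MEF2 probe sets lie above 0, whereas those of Gata6, Nkx2-5 and Tbx20 all include 0.

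Srf, the MADS-box factor of actin and immediate early genes, gave a split result. Probe set 1418255_s_at, whose suffix marks probes that can also bind transcripts of another gene, read 9.11, 9.25 and 9.17 in GRK2+/- hearts and 8.94, 8.95 and 8.99 in wild-type hearts. The groups did not overlap and the difference was 0.21 ± 0.07, or 1.16-fold (limma, adjusted p = 0.272). Probe set 1418256_at read 8.93, 8.92 and 8.90 against 8.94, 9.03 and 8.94, so that all GRK2+/- hearts were lower by a very small margin (-0.052 ± 0.07; interval -0.20 to 0.097). The gap between these probe sets differed between the groups by 0.27 with no overlap, and the exact permutation test gave p = 0.1, the smallest that 3 against 3 hearts allow. Among the 20 pairs of a member's brightest probe set with another of its own, that p was 0.4 after Benjamini-Hochberg adjustment. The 2 Srf probe sets thus pointed in opposite directions. For Mef2c, the gap of 1421027_a_at over 1451506_at differed between the groups by -0.14, also without overlap. For Mef2a, that of 1427185_at over 1442623_at differed by 0.10 without overlap (exact permutation p = 0.1, adjusted 0.4, for each).

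Gata4, the zinc finger factor that acts in hypertrophic growth, was higher in GRK2+/- hearts. On 1418863_at the GRK2+/- hearts read 9.43, 9.40 and 9.49 and the wild-type hearts 9.26, 9.02 and 9.29. All GRK2+/- hearts were above all wild-type hearts, with wild-type heart 2 the farthest below, and the difference was 0.26 ± 0.09, or 1.19-fold (interval 0.066 to 0.45; limma, adjusted p = 0.276). On 1418864_at the values were 6.87, 7.18 and 6.99 against 6.92, 6.78 and 6.84, where GRK2+/- heart 1 fell within the wild-type range (0.17 ± 0.09).

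Gata6, its close relative, which can partly replace GATA4, had 95% confidence intervals that included 0 on all 3 probe sets. The brightest probe set, 1425464_at, read 10.56, 10.22 and 10.32 in GRK2+/- and 10.41, 10.05 and 10.34 in wild-type hearts. Heart 1 of each group was high and heart 2 low, and the groups overlapped in part, with GRK2+/- heart 1 above all wild-type hearts and wild-type heart 2 below all GRK2+/- hearts (0.098 ± 0.11; interval -0.16 to 0.35). The differences were -0.013 ± 0.12 for 1425463_at and -0.20 ± 0.11 for 1443081_at, which was below the median probe set. The gap between 1425464_at and 1425463_at was wider in GRK2+/- hearts by 0.11 without overlap (exact permutation p = 0.1, adjusted 0.4). The averages of the Gata6 probe sets, relative to wild type, were 0.12, -0.21 and -0.023 in GRK2+/- hearts and 0.084, -0.15 and 0.071 in wild-type hearts.

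Hand2, which drives growth of the right ventricle in the embryo and is also expressed in epicardium, fibroblasts and cardiac neurons, had the largest negative difference among the members. Its brightest probe set, 1436041_at, read 10.77, 10.44 and 10.58 in GRK2+/- hearts and 10.84, 10.79 and 11.04 in wild-type hearts. The GRK2+/- hearts were all lower, though GRK2+/- heart 1 lay only just below wild-type heart 2, and the difference was -0.29 ± 0.10 (interval -0.52 to -0.068; limma, adjusted p = 0.285). On 1443854_at, a probe set below the median level, the values were 5.30, 5.34 and 5.44 against 5.62, 5.68 and 6.07, also without overlap (-0.43 ± 0.11; adjusted p = 0.213). On 1422221_at they were 7.39, 7.07 and 7.15 against 7.51, 7.19 and 7.62, with overlapping groups (-0.24 ± 0.12). Wild-type heart 3 was the highest of the 6 hearts on all 3 Hand2 probe sets, and without it the differences were -0.22, -0.29 and -0.15 in the order just given.

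Tbx5, the T-box factor of the atria, left ventricle and conduction system, had 2 probe sets with unlike differences. On 1425695_at the hearts read 8.93, 8.96 and 9.05 against 8.99, 8.89 and 9.17, intermingled between groups (-0.037 ± 0.08). On 1425694_at they read 7.81, 7.50 and 7.58 against 7.88, 7.79 and 8.22, where GRK2+/- heart 1 lay within the wild-type range (-0.33 ± 0.12; limma, unadjusted p = 0.0207, adjusted p = 0.302). That second difference was -0.20 without wild-type heart 3. The gap between the 2 Tbx5 probe sets was 0.30 wider in GRK2+/- hearts without overlap (exact permutation p = 0.1, adjusted 0.4).

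Tbx20, a T-box factor required for adult cardiomyocyte function, read 10.61, 10.57 and 10.41 in GRK2+/- and 10.44, 10.39 and 10.03 in wild-type hearts on its brightest probe set, 1453351_at. GRK2+/- heart 3 lay just below wild-type heart 1, and the difference of 0.24 ± 0.11 (interval -0.0062 to 0.49) was 0.11 without wild-type heart 3. Its other probe sets differed by 0.10 ± 0.11 (1425158_at) and 0.047 ± 0.09 (1422219_a_at, among the dimmest of the 30). Nkx2-5, the homeodomain factor of cardiac identity, had 1 probe set, 1449566_at, which read 9.91, 9.74 and 9.83 against 9.97, 9.76 and 10.06. Heart 2 was the lowest of each group, the groups overlapped, and the difference was -0.11 ± 0.09 (interval -0.31 to 0.096).

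A pattern across hearts was shared by several members. Wild-type heart 3 was the highest of all 6 hearts for Nkx2-5, both Tbx5 and all 3 Hand2 probe sets. GRK2+/- heart 2 was the lowest for Nkx2-5, for 1425694_at of Tbx5 and for 2 of the 3 Hand2 probe sets. Without wild-type heart 3, or without GRK2+/- heart 2, only 1 of the 3 lower member probe sets kept an unadjusted p under 0.05, the dim Hand2 probe set 1443854_at (limma, unadjusted p = 0.00672 and 0.0101). The number of higher member probe sets was 8 and 10 in those same fits. Over all 45037 probe sets the counts fell as well, from 2448 higher and 3332 lower with all hearts. They were 1619 and 2153 without wild-type heart 3, and 1950 and 2345 without GRK2+/- heart 2.

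**Figure D3:**
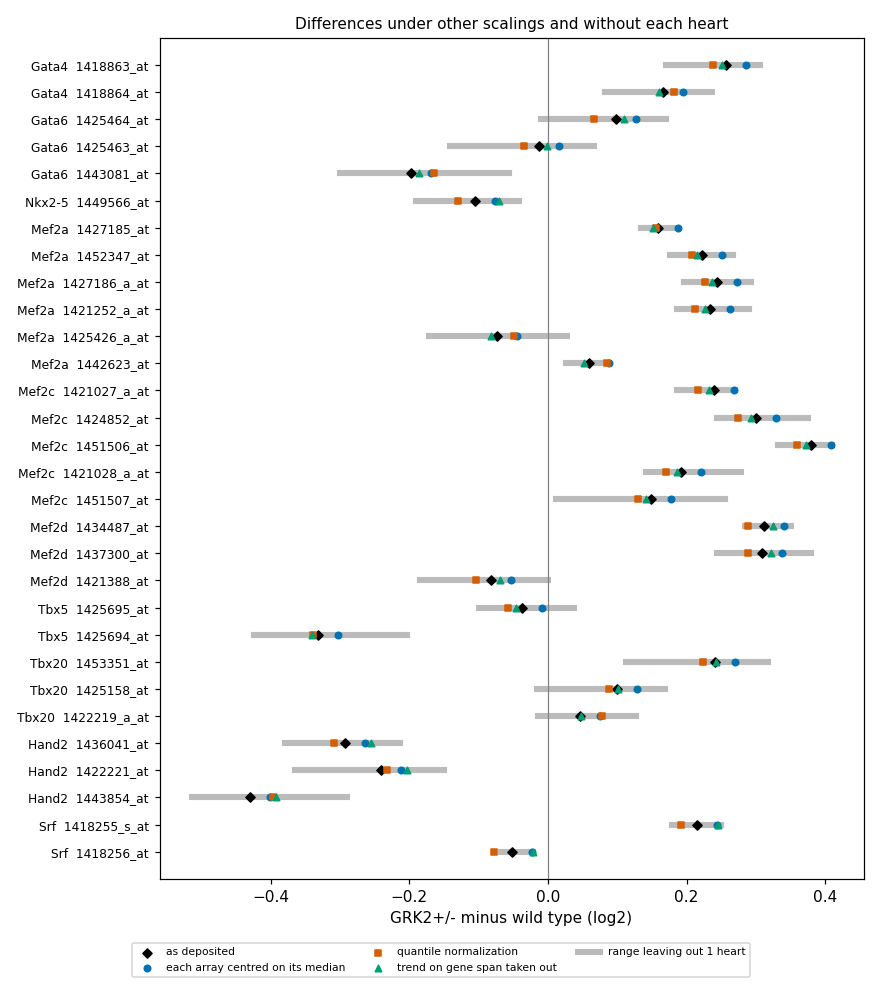
Log2 difference between GRK2+/- and wild-type hearts (x axis, positive where GRK2+/- is higher) for each of the 30 probe sets (y axis) as deposited (black diamonds), after median centring (blue), after quantile normalization (orange), with the gene span trend removed (green), and as the range obtained by leaving out 1 heart at a time (grey bars). The bars of Mef2c, of 2 Mef2d probe sets, of 4 bright Mef2a probe sets, of Gata4 and of 1418255_s_at of Srf stay above 0 and those of Hand2 stay below 0. Bars of other members also stay on 1 side, since only 6 of the 30 cross 0.

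The heart-wide difference between groups also ran with gene span. Genes longer than 100 kb had a median difference of 0.015, with 13.3% higher at an unadjusted p under 0.05, and genes up to 10 kb one of -0.039, with 3.26% higher and 9.06% lower. Mef2c spans 163.1 kb and Mef2a 145.3 kb, while Hand2 spans 3.54 kb and Nkx2-5 6.33 kb in the RefSeq table. Genes of 30 to 100 kb had 9.08% higher and 6.93% lower at that p. In that range lay Gata4 (72.8 kb, higher), Tbx20 (53.5 kb, positive) and Mef2d (30.2 kb, higher on 2 of 3 probe sets). Gata6 (33.1 kb, of mixed sign) and Tbx5 (88.7 kb, lower on 1 of 2 probe sets) lay there too. Genes of 10 to 30 kb had 4.16% higher and 7.84% lower, and Srf, higher on 1 of 2 probe sets, spans 11.4 kb. With that trend removed, Mef2c (1451506_at) was 0.37, Mef2d (1434487_at) 0.33, Mef2a (1427185_at) 0.15 and Hand2 (1436041_at) -0.26. The members numbered 11 higher and 3 lower in that fit. All its probe sets, which are those of genes with a known span, numbered 2548 higher and 2095 lower. The part of gene span in the member differences was not tested. For beta-actin, the gap between the 3′ and 5′ control probe sets, which widens as RNA is degraded or labelled short, was 0.90, 1.06 and 0.97 in GRK2+/- and 0.80, 0.80 and 0.73 in wild-type hearts. The gaps of Gapdh and pyruvate carboxylase differed between groups by 0.025 and 0.021. The part of RNA integrity in the member differences was not tested.

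Most markers of endothelium, fibroblasts, smooth muscle and epicardium had positive differences, beside 43.5% of all genes. Among those 4 cell types, named after their values were seen, the largest were those of the endothelial VEGF receptor Kdr (0.55 ± 0.12) and of the epicardial factor Wt1 (0.51 ± 0.12), both without overlap. Pecam1, the 1 endothelial marker below 0, was lower without overlap (-0.12 ± 0.07). In this tissue, fewer cells of a type and less RNA per cell cannot be told apart. The mean over 10 cardiomyocyte markers lay near the top of the scale, between 14.41 and 14.46 in GRK2+/- and between 14.36 and 14.41 in wild-type hearts, with 4 above 0 and 6 below in difference and 1, Ryr2, at an unadjusted p under 0.05. Of these 10, 8 lay between 13.8 and 15.1 in wild-type hearts, beside a highest value of 15.1 on any array, so their small differences do not show that heart muscle markers were level between groups. The dimmest, Ryr2, at 12.7, differed by 0.35 ± 0.08. The next dimmest, Actn2, at 13.7 and with 1 probe set, differed by -0.026 ± 0.07 with overlapping groups. Over all probe sets of a gene the mean difference was 0.40 for Ryr2, 0.19 for Myh6 and 0.15 for Ttn. It was -0.026 for Myl3, -0.020 for Tnnt2 and -0.0024 for Pln, the other cardiomyocyte markers with several probe sets. Endothelial markers had 6 of 7 above 0 (mean level 9.20 to 9.32 against 8.98 to 9.19), fibroblast markers 6 of 8 (9.96 to 10.07 against 9.84 to 9.97), smooth muscle and pericyte markers 5 of 7 (9.28 to 9.48 against 9.17 to 9.28) and epicardial and mesothelial markers 5 of 5 (6.05 to 6.21 against 5.83 to 5.92). Atrial markers had 5 of 9 above 0, with 5 of the 9 below the median level, and a mean of 7.02 to 7.11 against 7.17 to 7.22. By far the largest difference in that mean was that of Nppa (-1.20 ± 0.27), and the median difference of the list was 0.054. The mean therefore does not show a drop across the list. At an unadjusted p under 0.05, 3 atrial markers were lower, Nppa, the potassium channel Kcna5 (-0.34 ± 0.10) and the growth factor Bmp10 (-0.19 ± 0.08). The 5 atrial markers above 0 were Myl4 (0.14), Gja5 (0.13), Myl7 (0.11, without overlap), Dkk3 (0.11) and Sln (0.054), none at that p. In the ventricular list Myh7 was lower at that p (-0.78 ± 0.33). Ventricular markers had 3 of 6 above 0 (10.60 to 10.90 against 10.71 to 10.84). Leukocyte markers had 4 of 7 above 0, erythroid markers 2 of 3 and adipocyte markers 2 of 3, with overlapping ranges. No marker was at 0. MEF2 proteins and SRF also act in smooth muscle and endothelium, and the part of these cell types in the member differences was not tested.

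**Figure D4:**
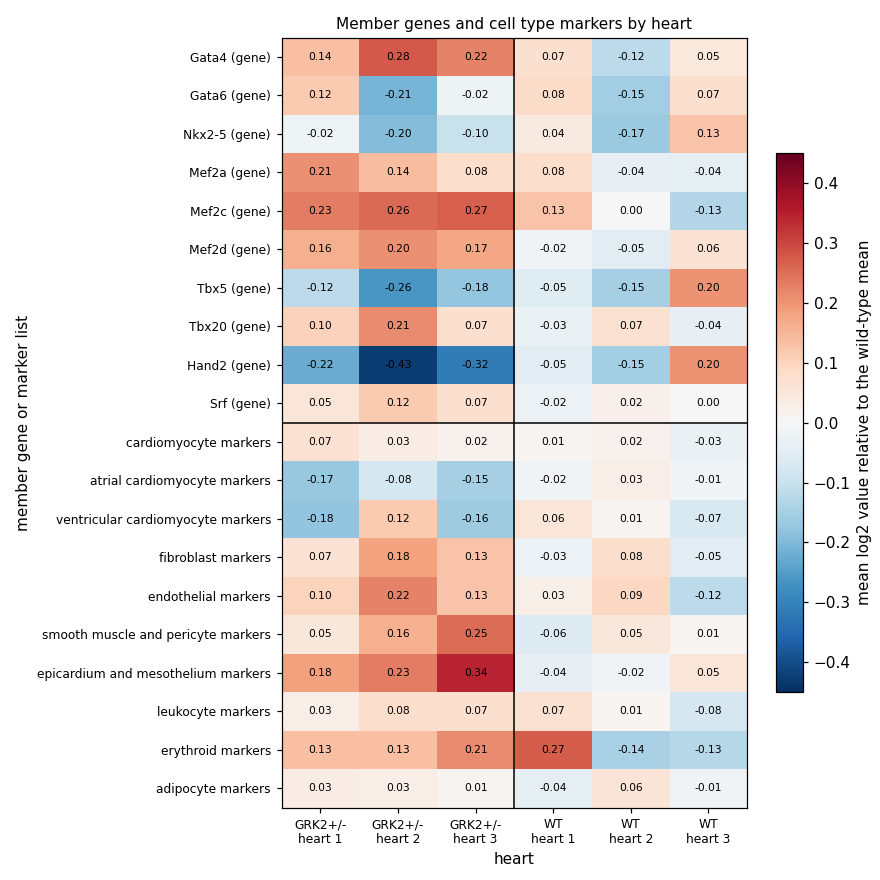
Mean log2 value of each member gene (over its probe sets) and of each marker list (over its genes) relative to the wild-type mean, for each heart (columns), with red for higher and blue for lower and the value printed in each cell. Mef2c stands at 0.23 to 0.27 in GRK2+/- hearts and at -0.13 to 0.13 in wild-type hearts.

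The other genes of the network were described from 6 lists with 102 measured genes of 108, each by its brightest probe set. Of these, 19 were higher and 4 lower at an unadjusted p under 0.05 (6.3% and 7.7% of all 18193 genes), and 0 passed the adjusted threshold (limma; smallest adjusted p = 0.0943). Over all genes the median difference was -0.019.

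Partner proteins and co-regulators of the members had a median difference of 0.041 over 28 genes, with 18 above 0, 5 higher and 0 lower at an unadjusted p under 0.05. Hdac9, a class II histone deacetylase that binds and represses MEF2 and is itself a MEF2 target, read 8.64, 8.81 and 8.63 in GRK2+/- and 8.20, 8.32 and 7.87 in wild-type hearts. Those groups were well apart (0.57 ± 0.11, or 1.48-fold; limma, adjusted p = 0.116), although the mean of its 2 probe sets gave 0.28. Jarid2, a chromatin factor that represses growth genes in the developing heart, differed by 0.48 ± 0.12 on its brightest probe set. Its 3 probe sets had the same sign, with a mean over them of 0.36. Zfpm2, the FOG-2 cofactor of GATA4, differed by 0.28 ± 0.08 on its brightest probe set, the only 1 of 2 with that sign. The mean over both was 0.13 (limma, unadjusted p = 0.0632). Elk4, a ternary complex factor of SRF, differed by 0.24 ± 0.09 on its brightest probe set. That was the only 1 of its 4 probe sets with that sign, and the mean over them was -0.024. The fifth, Myocd, the myocardin partner of SRF, was named after its values were seen and differed by 0.35 ± 0.13 on its brightest probe set. That was the only 1 of 2 with that sign, and the mean over both was 0.13.

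Other developmental factors of the chambers and conduction tissue had a median difference of 0.0078 over 21 genes, with 2 higher and 1 lower at that p. Prox1, a homeodomain factor with roles in heart muscle and lymphatic vessels, stood out at 7.61, 7.49 and 7.64 against 6.97, 7.19 and 6.78. All GRK2+/- hearts were higher on that brightest probe set, by 0.60 ± 0.10, or 1.52-fold (limma, adjusted p = 0.0943). The differences of 3 of 3 Prox1 probe sets had that sign. Nkx2-6, a relative of Nkx2-5, differed by -0.20 ± 0.08, Nr2f1 by 0.18 ± 0.08 and Tbx2 by 0.17 ± 0.08, the last 2 at levels below the median probe set.

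**Figure D5:**
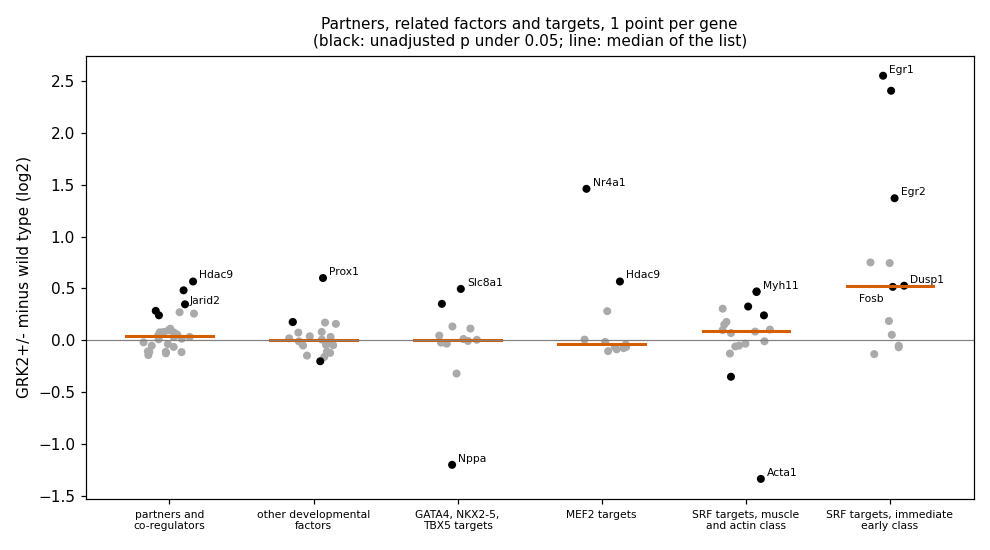
Log2 difference between GRK2+/- and wild-type hearts (y axis, positive where GRK2+/- is higher) for each measured gene of the 6 lists (x axis), 1 point per gene, black at an unadjusted p under 0.05, with the list median as a line. The immediate early SRF targets have a median of 0.52, and the other 5 medians lie between -0.040 and 0.092.

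Cardiomyocyte targets of GATA4, NKX2-5 and TBX5 had a median difference of 0.0057 over 13 genes, with 2 higher and 1 lower. The natriuretic peptide gene Nppa, a classical joint target of these factors, read 9.68, 10.67 and 9.56 in GRK2+/- and 10.93, 11.62 and 10.95 in wild-type hearts. All GRK2+/- hearts were lower, and heart 2 of each group was the highest (-1.20 ± 0.27; limma, adjusted p = 0.15). The calcium release channel Ryr2 differed by 0.35 ± 0.08 and the connexin Gja5 by 0.13 ± 0.07, the latter at a level below the median probe set. The sodium-calcium exchanger Slc8a1 differed by 0.50 ± 0.11 on its brightest probe set. Only 2 of its 4 probe sets had that sign, and the mean over all 4 was 0.087.

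MEF2 targets had a median difference of -0.040 over 11 genes, with 4 above 0, 7 below, 2 higher and 0 lower at an unadjusted p under 0.05. The 2 higher genes were Hdac9, given above, and the orphan nuclear receptor Nr4a1, which also answers acute signals and read 10.18, 10.12 and 11.29 against 9.02, 9.06 and 9.12. Jun differed by 0.28 ± 0.16 and the muscle kinase Srpk3 by -0.10 ± 0.07.

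SRF targets of the muscle and actin class had a median difference of 0.092 over 18 genes, with 4 higher and 2 lower. Smooth muscle myosin Myh11 differed by 0.47 ± 0.09 (mean over its probe sets 0.27). Non-muscle myosin Myh9 differed by 0.33 ± 0.12 (mean over its probe sets 0.11; 0.21 without GRK2+/- heart 2). Skeletal actin Acta1, a fetal-type actin of the heart, read 10.42, 11.65 and 9.85 in GRK2+/- and 11.81, 12.09 and 12.04 in wild-type hearts, lower in all GRK2+/- hearts with GRK2+/- heart 2 near the wild-type range (-1.33 ± 0.35; -1.84 without GRK2+/- heart 2 and -0.94 without GRK2+/- heart 3). The matrix protein gene Ccn2 was the other lower one (-0.35 ± 0.10). Named after their values were seen, Myl9 (0.24 ± 0.09) and Ccn1 (0.47 ± 0.20) completed the 4 higher genes. Ccn1 read 9.38, 9.79 and 10.35 against 9.34, 9.51 and 9.26, with overlapping groups, and its difference was 0.22 without GRK2+/- heart 3, and that of Myl9 0.16.

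SRF targets of the immediate early class had a median difference of 0.52 over 12 genes, with 9 above 0, 5 higher and 0 lower. Egr3, named after its values were seen, was below 0 on its brightest probe set (-0.051), but the mean over its 2 probe sets was 1.25. Egr1 read 9.31, 11.12 and 12.55 in GRK2+/- and 8.61, 8.33 and 8.39 in wild-type hearts. GRK2+/- heart 3 was far the highest and heart 1 the nearest to wild type, an order that Egr2 (5.44, 5.83 and 7.66 against 4.97, 4.90 and 4.95) and Dusp1 (11.41, 11.64 and 12.18 against 11.16, 11.24 and 11.25) shared. The Srf probe set 1418255_s_at did not share it, since GRK2+/- heart 2 was its highest. Fosb differed by 0.52 ± 0.12, and Fos, the fifth, named after its values were seen, by 2.40 ± 0.78. Without GRK2+/- heart 3 the list median was 0.145, and the differences were 0.69 for Egr2, 0.31 for Dusp1 and 1.34 for Fos.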

How the data were processed

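The deposited values lie on a log2 scale, as their range shows. The submitters' processing notes name RMA, a background correction, quantile normalization and probe summary, and limma, without versions or roles. Of 45101 probe sets, 64 controls were left out and 45037 tested; 34945 had 1 gene symbol, 932 had several, and 9160 had none here. Symbols were taken by Entrez identifier from the RefSeq table of GRCm38.p6 for 34741 of those with 1 symbol. Differences were fitted with limma (lmFit, then eBayes; limma 3.58.1 under R 4.3.3), two-sided, over all 6 arrays and tested on simulated data. Array number limits the precision; an exact test of 3 against 3 hearts cannot go below 0.1. All member probe sets are named, and, of each list, the 4 genes with the smallest unadjusted p. Members and lists were chosen with earlier results of these data known. Alternatives were other scalings, array weights, another prior, the replicate block, filters and leaving out hearts. The targeted gene was not analysed here, so it does not check the labels. The labels do not say whether the hearts came from separate litters; p-values measure the spread between these hearts.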

Additional observations from a re-analysis of the deposited data

How the results depend on the processing

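No member probe set passed the adjusted threshold under any alternative run (smallest adjusted p = 0.092, for Mef2c when limma's prior was fitted as a trend on level), and the 14 members with an unadjusted p under 0.05 kept their direction in each. Leaving out 1 heart gave 8 to 14 higher and 1 to 4 lower member probe sets, beside 1619 to 2973 and 2153 to 3889 of all 45037. The replicate block gave 12 and 4, beside 2298 and 2963 of all. Same-numbered hearts did not deviate together (correlations -0.145, -0.02 and 0.009), so the numbers show no pairing. Signs turned for Gata6 1425464_at (-0.038 with the mean of its probe sets; -0.010 to 0.17 leaving out 1 heart), Gata6 1425463_at (0.016 after centring; -0.14 to 0.067), Mef2a 1425426_a_at (-0.17 to 0.028), Tbx5 1425695_at (-0.10 to 0.038), Tbx20 1425158_at (-0.016 to 0.17), Tbx20 1422219_a_at (-0.015 to 0.13) and Elk4 (-0.024 with the mean of its probe sets). Over all probe sets 0 passed as fitted, 22 with that prior and 0 to 41 leaving out 1 heart (41, 9 and 6 without GRK2+/- heart 1, 2 and 3). Pathway genes that passed numbered 0 as fitted, 2 with that prior, 1 with the replicate block and 0 to 3 leaving out 1 heart. The partner list's median was -0.017 with the mean of the probe sets of a gene, and the immediate early list's 0.145 to 0.68 leaving out 1 heart. The correction for gene span was chosen after seeing the data. Quantile normalization gave 2937 higher and 2910 lower probe sets overall. The causes were not tested.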

Other observations

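Genes whose RefSeq window holds a CArG box numbered 229 among those measured and had a median difference of -0.011, with 20 higher (8.73%) and 18 lower (7.86%) at an unadjusted p under 0.05, beside 6.3% and 7.7% of all 18193 genes. Genes with a MEF2 site numbered 241, with a median of -0.0045, 25 higher (10.4%) and 14 lower (5.81%). Those with a GATA site numbered 3689, with a median of -0.031, 193 higher (5.23%) and 305 lower (8.27%). NKX2-5 sites gave a median of -0.016 over 1656 genes, with 116 higher and 131 lower. T-box motifs gave -0.020 over 2115 genes, with 145 higher (6.86%) and 158 lower (7.47%), and the median over all genes was -0.019.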
